A study of Rattus norvegicus with 60 samples.

Results

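The monocarboxylate and thyroid hormone transporters described here are 5 genes, Slc16a1, Slc16a3, Slc16a7, Slco1c1 and Slco1a4, read by 7 of the 31042 probe sets of an Affymetrix rat expression array. They were taken by name, as every probe set whose annotation gives one of these symbols and no other, and no probe set shares one of them with another gene. The tissue was frontal cortex of adult male Long-Evans rats (postnatal day 62 to 64), collected 6 h after 1 oral gavage in corn oil, with 1 array per rat. The vehicle group, given corn oil alone, had 12 rats, and 8 rats each received deltamethrin at 0.3, 1 or 3 mg/kg or permethrin at 1, 10 or 100 mg/kg. Both compounds are pyrethroid insecticides, which prolong the opening of voltage-sensitive sodium channels, and deltamethrin carries an α-cyano group that permethrin lacks. The deltamethrin was a single isomer, whereas the permethrin was a mixture of cis and trans isomers. Per the study's methods the lowest doses lie below and the middle doses at the behavioral no-effect level, and the highest doses of the compounds are not equal in behavioral effect. A tissue block mixes neurons, glia and vessels, so fewer cells of a type and less mRNA per cell cannot be told apart.

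Monocarboxylate transporters carry lactate, pyruvate and ketone bodies across membranes together with a proton, and in brain they serve the passage of fuel from blood and between glia and neurons. Slc16a1 encodes the isoform of brain endothelium, oligodendrocytes and astrocytes, Slc16a3 a low-affinity isoform of glycolytic cells including astrocytes, and Slc16a7 a high-affinity isoform best known in neurons. Slco1c1 and Slco1a4 belong to the organic anion transporter family. Slco1c1 takes up thyroxine at the blood-brain barrier and in astrocytes, and Slco1a4 is a transporter of broad substrate range in brain endothelium that also carries thyroid hormones.

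Values are log2 RMA intensities, so a difference of 1 is a doubling of intensity, and levels of different probe sets cannot be set against each other. All 60 arrays were used, and they fell into 2 array groups, A with 24 rats and B with 36, on the first principal components of all probe sets. Every dose group had 3 rats in A and 5 in B, and vehicle had 6 in each. The labels do not name these array groups, although the methods state that the rats were exposed on separate days. Within dose groups the arrays correlated at r from 0.926 to 0.997, and the first principal component held 58.0% of the variance. The markers of endothelial cells (13 of 14 listed genes measured) had mean log2 levels between 8.62 and 8.69 over the 7 groups. Those of excitatory neurons of cortex (6 of 7 measured) had means between 10.37 and 10.50. Markers of striatal neurons (7 of 8 measured) had means between 9.56 and 9.91, with the lowest rat at 8.25, in the 0.3 mg/kg deltamethrin group. The part of dissection in these levels was not tested.

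The upstream sequences of the genes are shown because Slc16a7 and Slco1a4 varied together from rat to rat, as described below, while Slc16a1 correlated little with either before the first component was subtracted. Each is the stretch of 250 bases before the annotated start in RefSeq (build GRCr8), 5′ to 3′ on the gene's strand. Windows were found for 4 of the 5 genes, and Slco1c1 had none in the table used. Capitals mark matches on either strand to 5 short motifs. These were the TATA box, spelled TATAAA, and the GC box, with the letters GGGCGG. The nuclear receptor half-site was searched as AGGTCA, and the core of the hypoxia response element as ACGTG. The fifth motif was the CCAAT box, searched as its name spells it. In Slc16a1 and Slco1a4 the hypoxia response core matched on both strands at overlapping places.
Slc16a1, chr2:194812410-194812659, plus strand: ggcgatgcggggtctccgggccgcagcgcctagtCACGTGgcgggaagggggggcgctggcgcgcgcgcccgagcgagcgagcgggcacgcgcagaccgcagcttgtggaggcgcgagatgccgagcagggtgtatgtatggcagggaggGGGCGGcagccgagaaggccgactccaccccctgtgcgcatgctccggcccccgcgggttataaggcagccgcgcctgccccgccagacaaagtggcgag
Slc16a7, chr7:63040399-63040648, minus strand: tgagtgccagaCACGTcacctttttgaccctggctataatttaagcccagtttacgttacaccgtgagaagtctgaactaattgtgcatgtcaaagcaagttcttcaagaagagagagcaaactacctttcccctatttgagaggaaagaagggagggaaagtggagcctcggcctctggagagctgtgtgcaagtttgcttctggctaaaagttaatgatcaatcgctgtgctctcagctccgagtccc
Slco1a4, chr4:176495847-176496096, minus strand: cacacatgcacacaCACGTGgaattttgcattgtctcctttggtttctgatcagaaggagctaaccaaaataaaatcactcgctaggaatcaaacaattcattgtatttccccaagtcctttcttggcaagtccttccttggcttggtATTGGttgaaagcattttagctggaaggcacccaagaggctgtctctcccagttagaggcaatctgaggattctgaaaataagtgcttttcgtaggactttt

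The Slc16a1 window was rich in CG dinucleotides, with 33, more than in 96.4% of the 33465 windows of the table. The Slc16a7 window held 6 and the Slco1a4 window 3, against a median of 5. The hypoxia response core occurred in 3 of the 4 windows found, which are the 3 printed, and in 16.6% of all windows. The Slc16a3 window, on chromosome 10, held none of the 5 motifs. The TATA box and the nuclear receptor half-site, present in 12.9% and 14.1% of all windows, were in none of the 4. The CCAAT box (34.0% of windows) was found once, in Slco1a4, and the GC box (30.5%) once, in Slc16a1. A match is a string of letters and not a measured binding site.

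At 6 h after dosing no transporter passed the test at any dose of either pyrethroid, and the differences from vehicle were small. At both highest doses the mean of each of the 5 genes was below vehicle, by 0.20 on the log2 scale or less at 3 mg/kg deltamethrin and by 0.21 or less at 100 mg/kg permethrin, each gene read by its brightest probe set. The second probe set of Slco1a4 was lower by more (differences of -0.26 and -0.31). The thyroxine transporter Slco1c1 lay furthest from vehicle relative to its spread. In 1 limma fit of all 60 arrays, 0 of 7 probe sets had an adjusted p under 0.05 in each of the 6 comparisons, and the fit called 0 of all 31042 probe sets in each (0%). The paper instead screened probe sets by regression across dose and then tested the reduced set by ANOVA. It reports dose-responsive probe sets for both compounds, some of them also changed in qRT-PCR. Its test is unlike this fit, and 0 calls here do not mean that the cortex did not respond. At an unadjusted p under 0.05 there was 1 of 42, Slco1c1 at 3 mg/kg deltamethrin. The same limit was met by 0.751%, 2.24% and 1.36% of all probe sets at 0.3, 1 and 3 mg/kg deltamethrin and by 1.18%, 3.48% and 1.24% at 1, 10 and 100 mg/kg permethrin. Of the 42 differences 38 were below 0, and of the 30 by the brightest probe set of each gene 26 were. Among all 14217 genes by their brightest probe set, 6940, 7745 and 7798 were above 0 at 0.3, 1 and 3 mg/kg deltamethrin. For 1, 10 and 100 mg/kg permethrin it was 7644, 8425 and 8568. The signs also differed between array groups at some doses. With 1 mg/kg permethrin Slc16a1 was -0.19 in A and 0.039 in B, Slco1c1 -0.094 and 0.079, and Slc16a3 0.13 and -0.089. The 6 comparisons share the vehicle rats, so these signs are not separate observations.

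**Figure D1:**
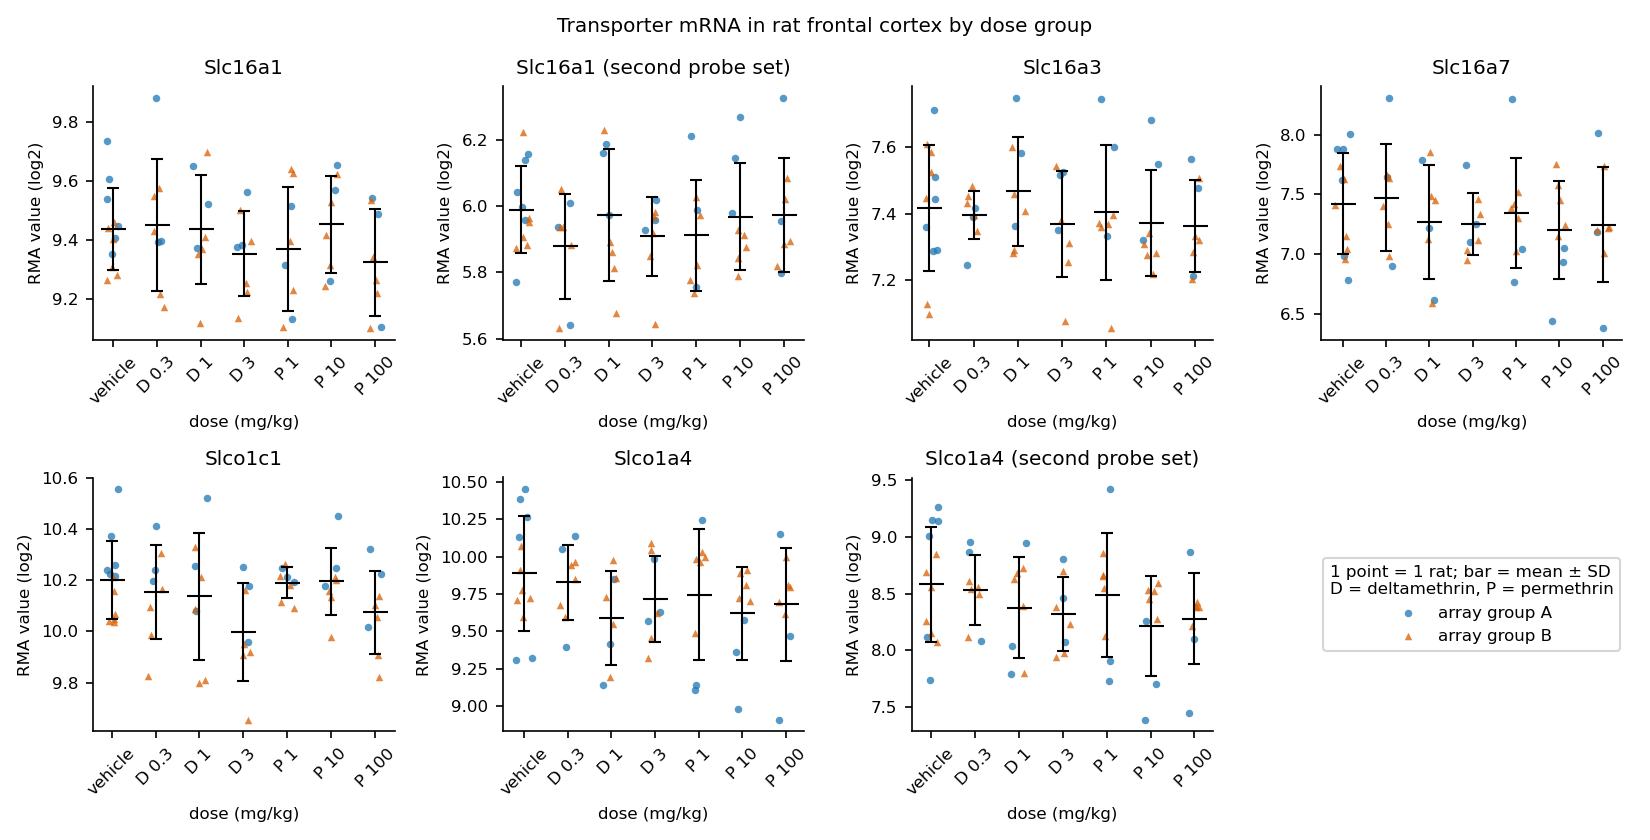
RMA value (log2, vertical axis) of each of the 7 probe sets in each rat, by dose group (D deltamethrin, P permethrin, mg/kg). Points are rats, circles in array group A and triangles in array group B, and the black bars give mean ± SD for 12 vehicle rats and 8 rats per dose. All dose groups overlap vehicle in every panel, and Slco1c1 at 3 mg/kg deltamethrin has the lowest mean of its panel (10.00 against 10.20 in vehicle).

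Slc16a1, the monocarboxylate transporter of brain endothelium and oligodendrocytes, was read by a bright probe set (1386981_at, mean 9.41, brighter than 84.4% of all probe sets). In vehicle its lowest, median and highest values were 9.27, 9.42 and 9.74. Rats given 3 mg/kg deltamethrin had 9.14, 9.38 and 9.56, and at 100 mg/kg permethrin 9.10, 9.30 and 9.54. The groups overlapped, with 3 of 8 deltamethrin and 4 of 8 permethrin rats below the lowest vehicle rat. The log2 differences were -0.083 (SE 0.080) and -0.11 (SE 0.080), with limma adjusted p of 1.00 for both. The means at the lower doses lay between 9.37, at 1 mg/kg permethrin, and 9.45, at 0.3 mg/kg deltamethrin and at 10 mg/kg permethrin. No ordering by dose appeared within either compound below the highest dose.

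A second Slc16a1 probe set (1380467_at) was dim, with a mean of 5.95, brighter than 28.5% of all probe sets. Its vehicle mean was 5.99 ± 0.13 (SD, n = 12) and its dose means ran from 5.88 to 5.97. Over rats it did not follow the bright probe set, with r of -0.20 in array group A (permutation p = 0.34) and -0.47 in array group B (permutation p = 0.0035, adjusted p = 0.011). The rank correlations were -0.12 (permutation p = 0.56) and -0.44 (permutation p = 0.0076), and without the 2 rats farthest from the median r was -0.11 and -0.41. The 2 readings of Slc16a1 therefore disagree from rat to rat.

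Slc16a3, the low-affinity isoform of glycolytic cells, was nearest to vehicle of the 5 genes at the highest doses. Its vehicle values had a minimum of 7.10, a median of 7.45 and a maximum of 7.71. Rats given 3 mg/kg deltamethrin had 7.08, 7.37 and 7.54, and at 100 mg/kg permethrin 7.20, 7.33 and 7.57. The groups overlapped almost completely, and the log2 differences of -0.047 and -0.054 (SE 0.074 each) had limma adjusted p of 1.00. Its highest group mean, 7.47, was at 1 mg/kg deltamethrin, and its lowest, 7.36, at 100 mg/kg permethrin.

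Slc16a7, the neuronal high-affinity isoform, had the widest spread of the lactate transporters. In vehicle its lowest, median and highest values were 6.78, 7.52 and 8.01. The deltamethrin rats at 3 mg/kg had 6.95, 7.19 and 7.74, and at 100 mg/kg permethrin 6.38, 7.21 and 8.01. No rat of the deltamethrin group lay outside the vehicle range, and the log2 differences of -0.17 and -0.18 were smaller than their SE of 0.19. The lowest mean, 7.20, was at 10 mg/kg permethrin and the highest, 7.47, at 0.3 mg/kg deltamethrin. The value at 10 mg/kg permethrin turned with the array group, with a log2 difference from vehicle of -0.72 in A (3 against 6 rats) and 0.11 in B (5 against 6 rats). With an SD of 0.43 between rats of a group, the 95% interval at 3 mg/kg deltamethrin ran from -0.56 to 0.21.

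Slco1c1, the thyroxine transporter of the blood-brain barrier and astrocytes, was the brightest of the probe sets (1370205_at, mean 10.1) and had the lowest p of the 5 genes. In vehicle its lowest, median and highest values were 10.04, 10.21 and 10.56. At 3 mg/kg deltamethrin they were 9.66, 9.95 and 10.25, and at 100 mg/kg permethrin 9.82, 10.08 and 10.32. At 3 mg/kg deltamethrin 5 of 8 rats lay below the lowest vehicle rat and 7 of 8 below the vehicle mean, while the upper part of the group overlapped vehicle. At 100 mg/kg permethrin 3 of 8 lay below the lowest vehicle rat. The log2 difference at 3 mg/kg deltamethrin was -0.20 (SE 0.077, 95% interval -0.36 to -0.050, a ratio of 0.868), with a limma p of 0.0103 and an adjusted p of 1.00. At 100 mg/kg permethrin it was -0.13 (SE 0.077, 95% interval -0.28 to 0.026, limma p = 0.103, adjusted p = 1.00).

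The lower doses of both compounds left Slco1c1 near vehicle. Its means at 0.3 and 1 mg/kg deltamethrin were 10.15 and 10.14, and at 1 and 10 mg/kg permethrin 10.19 and 10.20. Thus the deltamethrin means lay in the order of dose, and in the permethrin groups the highest dose alone stood below the others, without any of these steps passing the test. Across dose, Slco1c1 had a limma linear trend of -0.20 from vehicle to 3 mg/kg deltamethrin (SE 0.080, p = 0.0197, adjusted p = 1.00) and of -0.13 from vehicle to 100 mg/kg permethrin (SE 0.055, p = 0.0294, adjusted p = 1.00). No probe set of the 5 genes passed the trend test after adjustment (0% of all probe sets did), and at an unadjusted p under 0.05 it was 1 of 7 for each compound, where 1.36% and 0.696% of all probe sets met that limit. In the test of any dose 0 of 7 probe sets passed for either compound, with 0 called among all probe sets (0%). None had an unadjusted p under 0.05 there, against 0.725% of all probe sets for deltamethrin and 1.23% for permethrin, and Slco1c1 came nearest for deltamethrin (limma p = 0.0749, adjusted p = 1.00).

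Slco1c1 was also the member most tied to the array groups. Its level was 0.18 higher on the log2 scale in array group A than in B, and 31.2% of its variance within dose groups went with that division. Within array group A the difference at 3 mg/kg deltamethrin was -0.18 (SE 0.10, 3 against 6 rats) and within B -0.17 (SE 0.088, 5 against 6 rats), and it was -0.18 in a fit that blocked on array group. At 100 mg/kg permethrin it was -0.12 in A and -0.088 in B. The size of the deltamethrin difference was therefore close to the same within each array group, with an adjusted p of 1.00 in both limma fits.

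Slco1a4, the organic anion transporter of brain endothelium, was read by a pair of probe sets that varied together over rats. Their r was 0.97 in array group A and 0.78 in B, and 0.63 and 0.53 with the first principal component subtracted. The brighter one (1387093_at, mean 9.73) had vehicle values with a minimum of 9.31, a median of 9.84 and a maximum of 10.45. The rats at 3 mg/kg deltamethrin had 9.32, 9.63 and 10.09, and at 100 mg/kg permethrin 8.91, 9.75 and 10.15. The ranges overlapped, and the log2 differences of -0.17 and -0.21 (SE 0.15 each, limma adjusted p = 1.00) lay within the spread between rats. Its largest differences were at middle doses, -0.30 at 1 mg/kg deltamethrin (limma p = 0.0596, adjusted p = 1.00) and -0.27 at 10 mg/kg permethrin (limma p = 0.0894, adjusted p = 0.961). The second probe set (1387094_at, mean 8.41) differed from vehicle by -0.21 and -0.37 at these doses, and by -0.26 and -0.31 at the highest doses.

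The difference of Slco1a4 at 10 mg/kg permethrin was not the same in the array groups. It was -0.67 in array group A, with 3 against 6 rats, and 0.0095 in array group B, with 5 against 6. All 3 rats at this dose in A had first principal component scores above 33, and all 5 in B had scores below 0. In A vehicle rats 1, 2, 3 and 6 had scores of -24.2, -18.7, -11.5 and -22.5, and rats 4 and 5 had 63.8 and 50.8. Vehicle scores in B ran from -32.8 to -3.45. The part of the component in the difference was not tested. At 100 mg/kg permethrin the Slco1a4 difference was -0.47 in A and -0.016 in B (-0.59 and -0.073 by the second probe set), and at 1 mg/kg permethrin -0.48 in A and 0.094 in B. The deltamethrin rats had -0.51 in A and -0.14 in B at 1 mg/kg, and -0.25 and -0.092 at 3 mg/kg. Whether the array groups differed in these effects was not tested.

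**Figure D2:**
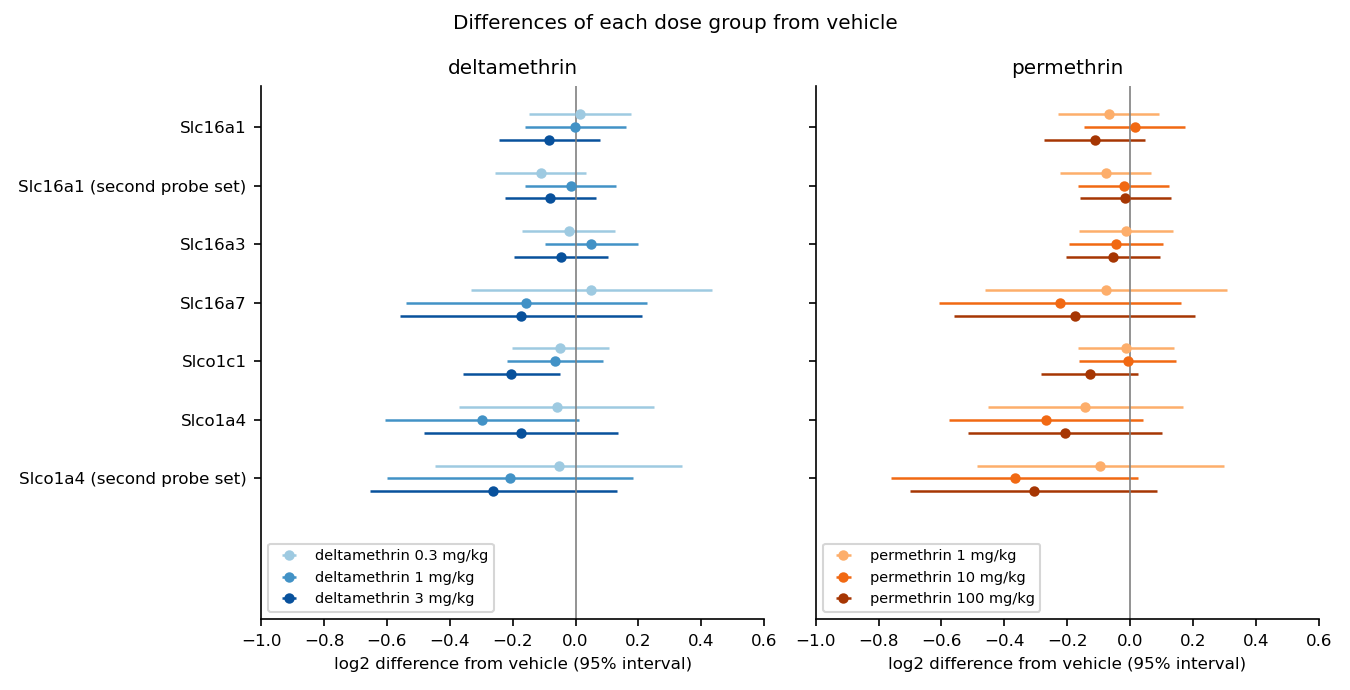
Difference of each dose group from vehicle (log2, horizontal axis) with its 95% interval from the limma fit, for the 7 probe sets and 3 doses of deltamethrin (left) and permethrin (right). The one interval that leaves out 0 is Slco1c1 at 3 mg/kg deltamethrin, and the intervals of Slc16a7 and Slco1a4 are the widest.

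The compounds were compared directly in the same fit, at the matched dose of 1 mg/kg and at the pairs 0.3 and 1, 1 and 10, and 3 and 100 mg/kg of deltamethrin and permethrin. Deltamethrin, with its α-cyano group, and permethrin, without it, gave no difference that passed the test in 28 comparisons (0 of 7 probe sets in each pair, where 0% of all probe sets were called). The lowest unadjusted p was 0.25, for Slc16a3 at 1 against 10 mg/kg (deltamethrin higher by 0.094, SE 0.081, limma adjusted p = 1.00). Of all probe sets 2.73%, 2.41%, 1.02% and 0.802% had an unadjusted p under 0.05 in these 4 comparisons. At 1 mg/kg of both, deltamethrin minus permethrin was 0.067 for Slc16a1 (95% interval -0.11 to 0.24), 0.063 for Slc16a3 (-0.10 to 0.23) and -0.078 for Slc16a7 (-0.50 to 0.34). It was -0.052 for Slco1c1 (-0.22 to 0.12) and -0.16 for Slco1a4 (-0.49 to 0.18). At 3 against 100 mg/kg Slco1c1 was lower with deltamethrin by 0.077 (difference -0.077, 95% interval -0.25 to 0.092). These intervals admit modest differences in either direction, and for Slc16a7 and Slco1a4 larger ones.

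The 5 genes differed widely in how much they varied between rats that had the same treatment. The SD within dose groups was 0.18 for Slc16a1, 0.16 for Slc16a3 and 0.17 for Slco1c1, near the median of 0.18 over all probe sets. Among the 2000 probe sets of most similar brightness, 17.9%, 28.1% and 17.2% had a smaller SD, so that most of them varied more. The SD was 0.43 for Slc16a7, higher than for 91.4% of probe sets, and 0.35 and 0.44 for the Slco1a4 probe sets, higher than for 84.8% and 91.8%. Among the 2000 of most similar brightness, 89.3% had a smaller SD than Slc16a7, and 72.75% and 87.4% than the Slco1a4 probe sets. The first principal component accounted for 67.2% and 58.5% of the variance of the Slco1a4 probe sets within dose groups, 50.9% of that of Slc16a7 and 51.9% of that of Slc16a3. For the bright Slc16a1 probe set it was 0.247% and for Slco1c1 14.9%, against a median of 33.3% over all probe sets. Slc16a7 and Slco1a4 ran opposite to the component (r = -0.94 and -0.96 in array group A, -0.88 and -0.70 in B), and Slc16a3 ran with it (0.84 and 0.44).

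**Figure D3:**
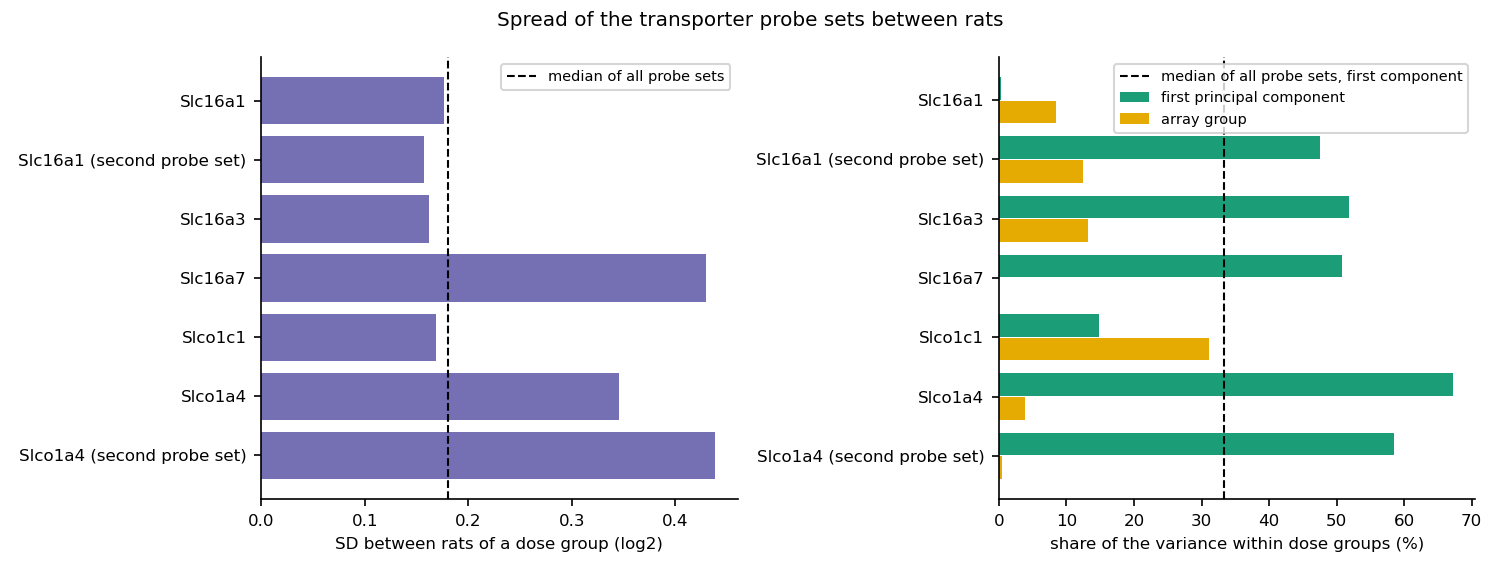
Left, SD between rats of a dose group (log2) for each probe set, with the median of all probe sets as a dashed line. Right, share of the variance within dose groups (%) that goes with the first principal component of all arrays (green) and with the array group (yellow), with the median share of the first component over all probe sets as a dashed line. Slc16a7 and both Slco1a4 probe sets have the largest SD (0.35 to 0.44), and the bright Slc16a1 probe set has almost no share in the component (0.247%).

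Over rats Slc16a7, Slco1a4 and Slc16a3 varied with the component, and Slc16a1 and Slco1c1 did so less. Slc16a7 and Slco1a4 correlated at r = 0.94 in array group A (Spearman's rho 0.94) and 0.72 in B (rho 0.67). The permutation p was 1e-05 in each case, the smallest that 100000 permutations can give, and the adjusted p was 4.8e-05 over the 24 relations computed. Without the 2 rats farthest from the median r was 0.95 and 0.63. With the first component subtracted r was 0.40 and 0.29, so the pair shared less variation once that component was removed.

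Slc16a1 and Slco1c1, by contrast, correlated by about the same amount with and without the component. With that component subtracted, Slc16a1 ran opposite to Slc16a7 in array group A (r = -0.66, and 0.026 in B) and had r of -0.30 and -0.25 with Slco1a4, against -0.049, 0.22, 0.10 and -0.0046 before. For Slc16a1 with Slco1c1 in array group A r was 0.55 (permutation p = 0.0063, adjusted p = 0.017) and rho 0.63 (permutation p = 0.0012, adjusted p = 0.0036). In array group B r was 0.56 (permutation p = 0.00033, adjusted p = 0.0011) and rho 0.53 (permutation p = 0.00097, adjusted p = 0.0033). Without the 2 rats farthest from the median r was 0.56 and 0.51, and with the first component subtracted 0.61 and 0.54. Both genes are known from brain endothelium and astrocytes, and the part of shared cell types in their correlation was not tested. Slc16a3 ran opposite to Slc16a7 and Slco1a4 in array group A (r = -0.78 with each, rho -0.78 and -0.81, adjusted p of 4.8e-05 and 8e-05), and after subtraction of the component r was 0.033 and 0.12. In array group B r was -0.34 (adjusted p = 0.085) and -0.015 (adjusted p = 0.97), and after subtraction 0.11 and 0.46.

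**Figure D4:**
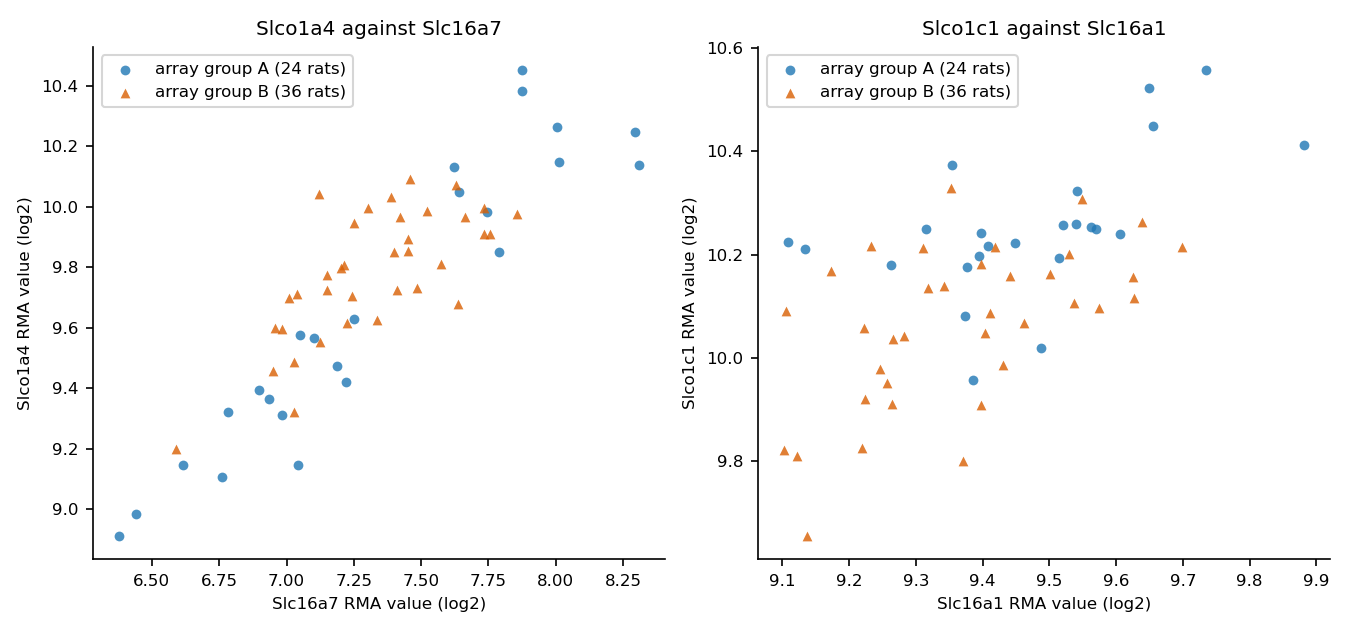
RMA values (log2) of Slco1a4 against Slc16a7 (left) and of Slco1c1 against Slc16a1 (right), 1 point per rat, circles for the 24 rats of array group A and triangles for the 36 of array group B. The left pair rises along 1 line in both array groups (r = 0.94 and 0.72), and the right pair rises with more scatter (r = 0.55 and 0.56) with array group A higher in Slco1c1 by 0.18.

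The 11 lists of cell type markers gave these values beside the pair of Slc16a1 and Slco1c1. With the first component subtracted, the mean of the oligodendrocyte markers (7 of 8 measured) correlated with Slc16a1 at r = 0.62 in array group A and 0.28 in B, and with Slco1c1 at 0.54 and 0.26. The endothelial markers correlated with Slc16a1 at 0.056 and 0.38 and with Slco1c1 at 0.19 and 0.32. Those of astrocytes (8 of 9 measured) had r of 0.054 and 0.43 with Slc16a1 and of -0.095 and -0.014 with Slco1c1. Mural cell markers had 0.20 and 0.47 with Slc16a1 and 0.12 and 0.33 with Slco1c1, and microglia markers -0.55 and 0.0016 with Slc16a1 and -0.33 and 0.16 with Slco1c1. Excitatory neuron markers had 0.43 and -0.23 with Slc16a1 and 0.28 and 0.14 with Slco1c1. In the same order inhibitory neurons had -0.12 and 0.325, then -0.38 and 0.24. Striatal neurons had 0.20 and 0.43, then -0.12 and 0.30. Choroid plexus had 0.28 and -0.44, then 0.067 and -0.19. Meninges had 0.079 and 0.40, then 0.066 and 0.071, and blood cells -0.29 and 0.056, then 0.093 and 0.24. Slco1a4 had r of 0.45 in A and -0.24 in B with the endothelial markers, against -0.68 and -0.19 with the component kept. For Slc16a7 and the excitatory neuron markers r was -0.17 and 0.30, against 0.61 and 0.15 with the component kept. At 3 mg/kg deltamethrin the oligodendrocyte markers had a median log2 difference from vehicle of -0.052, with 1 of 7 above 0, and at 100 mg/kg permethrin of -0.11, with 0 of 7 above 0. The endothelial markers had medians of 0.020 and -0.018, with 8 and 5 of 13 above 0. At an unadjusted p under 0.05, 1 of 7 oligodendrocyte markers was lower at 3 mg/kg deltamethrin, and 1 endothelial marker was higher and 1 lower. Among all genes 1.34% met that limit there. The paper lists the probe set of the oligodendrocyte marker Opalin, under the name Tmem10, as lower with deltamethrin in its own dose test. No marker passed the test used here after adjustment, and the part of these cell types in the transporter values was not tested.

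The genes most alike to each transporter were found by correlation over 60 arrays after the mean of each array group was subtracted, as a description. For Slc16a1 these were Tram1 (r = 0.70), Dnaaf9 (0.69), Cyp20a1 (0.69), Edem1 (0.68) and Chsy1 (0.65). For Slco1c1 they were Car8 (0.58), Sema6a (0.57), Pde8a (0.56), Fgfr2 (0.56) and Slc16a1 itself (0.55), although Slc16a1 was not among the 5 when array group means were kept (Ezr, Tes, Cldn10, Eps8 and Car8). For Slc16a7 they were Hecw1, Scn1a, Dld, Reps2 and Nlgn1 (0.94 to 0.95), of which Scn1a encodes a neuronal sodium channel. For Slco1a4 they were Vps41, Rnf13, Alcam, Cyyr1 and Ptprd (all 0.93), and for Slc16a3 Map4k1, Tgm2, Dele1, Phka2 and Gatad1 (0.79 to 0.81). The last 3 transporters are those with the larger shares of variance in the first component.

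The other genes of these pathways were read in the same fit, each by its brightest probe set, and 0 of the 59 measured passed the test at any dose. At an unadjusted p under 0.05 there were 4 of 354 tests. That limit was met by 0.71%, 2.38% and 1.34% of all genes at 0.3, 1 and 3 mg/kg deltamethrin and by 1.08%, 4.22% and 1.24% at 1, 10 and 100 mg/kg permethrin. The paper, by a test of whole gene categories across dose that joined the evidence of both compounds, lists monocarboxylic acid transport as commonly enriched. It is not among the categories the paper lists for either compound alone. Such a category test is unlike the test of single genes used here, and no test of categories was run. Of the other monocarboxylate transporters 7 of 12 listed genes were measured, with a median log2 difference of -0.070 at 3 mg/kg deltamethrin (2 above 0) and 0.044 at 100 mg/kg permethrin (4 above 0). Bsg, which encodes the chaperone that brings monocarboxylate transporters to the cell surface, had a vehicle mean of 12.4 and log2 differences of 0.072 and 0.049 (SE 0.084 each, limma adjusted p of 1.00). The 3 chaperone genes had medians of 0.048 and -0.0098.

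The enzymes and carriers of lactate, pyruvate and ketone bodies, 14 of 18 measured, had medians of 0.0038 and 0.020 at the highest doses. In the rest of the organic anion transporter family, 11 of 15 measured, the medians were -0.0094 and 0.023. The one gene of any pathway list with an unadjusted p under 0.05 at a highest dose was Slco2a1, the prostaglandin transporter, which was higher at 3 mg/kg deltamethrin by 0.21 (SE 0.094, limma p = 0.0276, adjusted p = 1.00). At 100 mg/kg permethrin its difference was 0.17 (limma p = 0.0699, adjusted p = 1.00). The other genes of thyroid hormone transport, deiodination and binding, 16 of 18 measured, had medians of 0.036 and 0.0061, and the 9 thyroid hormone-responsive genes 0.022 and 0.015. Ttr, the thyroxine carrier of choroid plexus, gave the lowest value of any pathway gene at the highest doses, -0.76 at 100 mg/kg permethrin (SE 0.74, limma adjusted p of 1.00), and was picked out after its values were seen. The choroid plexus markers (8 of 9 measured, Ttr among them) had a median of -0.085 there, with 2 of 8 above 0, and of -0.074 at 3 mg/kg deltamethrin, with 0 of 8 above 0. Their summed linear level in vehicle had a median of 1531 and a highest value of 13782 (highest 3724 at 100 mg/kg permethrin), and the part of that tissue in the Ttr value was not tested. The 5 transporters had medians of -0.17 and -0.13, and all 14217 genes 0.0078 and 0.017, with 45.2% and 39.7% of all genes below 0.

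**Figure D5:**
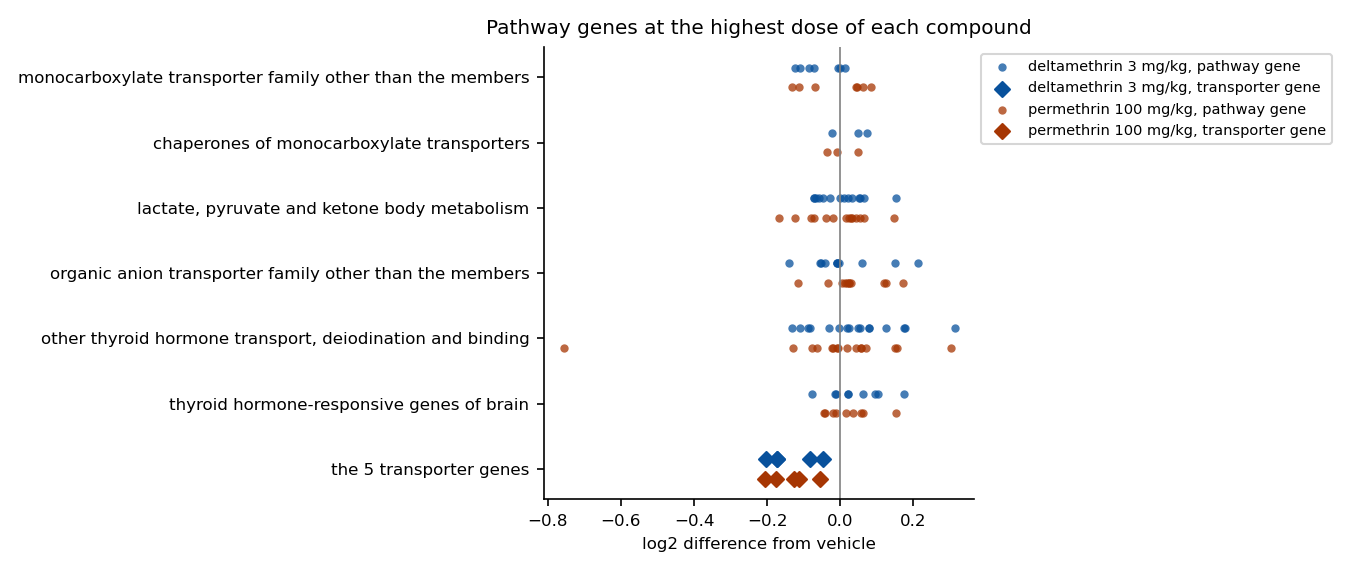
Log2 difference from vehicle (horizontal axis) at 3 mg/kg deltamethrin (blue) and 100 mg/kg permethrin (brown) for each gene of the 6 pathway lists (circles) and for the 5 transporter genes (diamonds). The pathway genes lie on both sides of 0 and the 5 transporters lie below it, with medians of -0.17 and -0.13, and no gene shown passed the test after adjustment. The point at -0.76 is Ttr.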

How the data were processed

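Frontal cortex RNA of 60 rats was hybridized to 1 array each. The deposited values are log2 expression summaries computed by the authors with RMA (background correction, quantile normalization and a summary of the probes of each set), for which the paper names RMAExpress. Quantile normalization would hide a change shared by all genes. Precision is limited by how many arrays each group has. The groups came from the sample titles, and array groups from a Gaussian mixture of 2 components (scikit-learn 1.9.0) on the first principal components.

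Each dose was compared with vehicle, and the compounds with each other, in 1 fit of 7 group means with limma 3.58.1 (R 4.3.3), and p-values of all 31042 probe sets were adjusted by Benjamini-Hochberg, with 0.05 as the threshold. This fit had no term for array group, although vehicle and dose groups were split unlike between A and B. A probe set higher in A is therefore shifted below vehicle in it, and one lower in A above vehicle. The level in A minus B was 0.18 for Slco1c1, 0.11 for Slc16a3, 0.099 for Slc16a1, -0.0033 for Slc16a7 and -0.13 for Slco1a4. Trends used the 36 arrays of a compound and vehicle. Fits were tested on simulated data. Of the probe sets 20826 had 1 symbol, 436 several and 9780 none in the platform annotation. Named were all members, the 5 genes most alike to each, and up to 3 genes per pathway list by p with an unadjusted p under 0.05 at a highest dose, besides Bsg. An item of the naming rule is not reported here. The members and lists were chosen with earlier results of these data known. Nothing states whether rats shared a cage or litter, so p-values measure the spread between these rats. Correlations used 100000 permutations of the rats of an array group, with dose groups mixed, and numpy 2.4.6, scipy 1.17.1 and pandas 2.3.3. Figures were drawn with matplotlib 3.10.9. The alternatives were another model, scale, filter or set of arrays.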

Additional observations from a re-analysis of the deposited data

Results flagged for a closer look

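In 1 of the 42 combinations of a probe set and a dose group of 8 rats, 1 rat stood apart from the other 7. For the dim second probe set of Slc16a1 at 3 mg/kg deltamethrin the lowest rat, number 7 of array group B, had a log2 value of 5.64 while the next was at 5.85, a gap of 0.547 of the range of the group against a critical value of 0.526. Chance gives such a gap in about 1 in 20 groups.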

How the results depend on the processing

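The counts of called transporter probe sets and of called pathway genes were 0 in limma under every alternative run, and the former ranged from 0 to 0 when any 1 rat was left out. The log2 differences at the highest doses kept their sign and side of the threshold except for these. Slc16a7 at 100 mg/kg permethrin became 0.016 with the array group as a block and the first principal component as a covariate. Slc16a3 at 3 mg/kg deltamethrin became 0.030 in array group A alone, an alternative chosen after seeing the data. Replicate numbers mark no shared animal, and only 1 to 4 of the 8 same-numbered pairs with vehicle per dose correlated above 0.1 in their deviations. As a replicate block they turned Slc16a3 to 0.016 at 3 mg/kg deltamethrin and 0.0090 at 100 mg/kg permethrin, and calls stayed at 0. The causes were not tested.

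Without 1 rat, Slco1c1 lay between -0.24 and -0.16 at 3 mg/kg deltamethrin and between -0.16 and -0.091 at 100 mg/kg permethrin. Slc16a3 ran from -0.076 to -0.0048 (highest without replicate 7 of the deltamethrin group) and from -0.083 to -0.027 (highest without vehicle replicate 4), and Slc16a1 from -0.11 to -0.052 (highest without deltamethrin replicate 4) and from -0.14 to -0.081. Slc16a7 lay between -0.29 and -0.053 at 100 mg/kg permethrin, the last without replicate 2 of that group, and Slco1a4 between -0.27 and -0.097, again without replicate 2. Array weights raised the unadjusted count against vehicle from 1 to 10 of 42. The share of all probe sets at that limit was not computed under these weights, so the rise is not a result about the transporters. Among all probe sets the same weights raised the calls after adjustment from 0 to 7 at 3 mg/kg deltamethrin. At 100 mg/kg permethrin those calls rose from 0 to 10. Without weights, calls at 3 mg/kg deltamethrin were 3 with the array group block, 5 with the first component as a covariate and 11 with both. For 100 mg/kg permethrin they were 0, 0 and 1. The weights moved Slc16a7 at 3 mg/kg deltamethrin to -0.33 and Slco1a4 to -0.34, with no adjusted p under 0.05. The array group block with the first component moved them to -0.057 and -0.098, and Slco1a4 at 100 mg/kg permethrin to -0.072. Of the 25 genes most alike, 9 were shared when array group means were kept, 12 with Spearman's rho and 12 with the first component subtracted, the last chosen after seeing the data. The number of rats and the wide spread of Slc16a7 and Slco1a4 limit what could be detected.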

Other observations

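Mpc2, a subunit of the mitochondrial pyruvate carrier that lies outside the naming rule and was chosen after its values were seen, had a vehicle mean of 10.18 and was higher by 0.19 at 0.3 mg/kg deltamethrin (limma p = 0.0270, adjusted p = 1.00), by 0.20 at 1 mg/kg deltamethrin (p = 0.0171, adjusted p = 1.00) and by 0.17 at 10 mg/kg permethrin (p = 0.0494, adjusted p = 0.961). It was higher by 0.15 at both highest doses and differed by -0.011 at 1 mg/kg permethrin, where 3 of the 14 measured genes of its list were above 0. These comparisons share the vehicle rats, and none passed the test after adjustment.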
